A study of Mus musculus with 36 samples.

Results

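Type I interferon stimulated genes were followed in the blood of Townes sickle cell mice across the weeks, doses and arms of a MIR29B dosing study. The members were 38 mouse genes, named by symbol, out of the 16812 genes in the table. All 38 had an entry, and all 38 passed the filter on low counts.

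In Townes mice the mouse globin loci are replaced by human ones, and the animals develop sickle cell disease. RNA was sequenced from 36 libraries of peripheral blood, in 12 groups of 3. The groups crossed MIR29B, a microRNA modified with cholesterol, or a scrambled control oligonucleotide with doses of 2 or 3 mg/kg and with weeks 0, 2 and 4. Both arms received their agent from a mini-osmotic pump, and globin mRNA was depleted from every library. The sources used here give no age, and they do not say whether week 0 blood was drawn before dosing began, so whether the arms differed in exposure at week 0 is not known here. Nor do they state that each library is a different animal, and p-values here therefore measure only the spread between these libraries, which may be technical.

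Type I interferons signal through the receptor chains Ifnar1 and Ifnar2 and the kinases Jak1 and Tyk2 to a complex that holds Stat2 and Irf9 and binds interferon-response elements in the promoters of target genes. The targets include RNA-binding and RNA-degrading effectors, the ubiquitin-like modifier Isg15 with its enzymes, and nucleic acid sensors that feed back on the pathway. In blood the response is best known from white cells, plasmacytoid dendritic cells being a major source of the ligands.

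The label erythrocytes was checked against red cell and white cell markers. Alas2, the first enzyme of red cell heme synthesis, had 58900 to 149000 CPM (counts scaled to a common library size with the TMM method). The neutrophil gene S100a9 had 62.9 to 1080 CPM and the NK cell gene Ncr1 0 to 4.89 CPM, with 3 libraries at 0, so white cell transcripts were present throughout. In whole-blood RNA of this kind, fewer cells of a type and less RNA per cell cannot be told apart. Library totals were 10.7 to 45.65 M counts, and in 3 libraries over 5% of counts fell on ribosomal RNA (Rn28s1) and on non-coding entries without a gene name. These were week 0 scrambled 2 mg/kg replicate 1 and week 2 MIR29B 2 mg/kg replicates 2 and 3.

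The promoters of 3 members are shown because they carry the element by which the family is usually recognised. The letters searched were GAAANNGAAA on either strand, where N is any base. Capitals mark the matches. On the printed strand the matches of Ifit1 and Ifit1bl1 read as the reverse complement, and the 3 matches of Isg15 overlap each other. Each window runs from 250 bases before to 50 bases after a RefSeq start on GRCm38.p6. The Ifit1 window is chr19:34640639-34640938 on the plus strand, the Ifit1bl1 window is chr19:34601919-34602218 on the minus strand, and the Isg15 window is chr4:156200769-156201068 on the minus strand.
Ifit1: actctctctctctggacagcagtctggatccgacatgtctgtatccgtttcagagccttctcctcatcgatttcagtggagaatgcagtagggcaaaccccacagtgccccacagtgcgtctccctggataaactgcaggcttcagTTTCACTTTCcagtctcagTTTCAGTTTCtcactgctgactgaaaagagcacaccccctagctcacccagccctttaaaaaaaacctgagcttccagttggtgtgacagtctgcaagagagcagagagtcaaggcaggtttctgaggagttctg
Ifit1bl1: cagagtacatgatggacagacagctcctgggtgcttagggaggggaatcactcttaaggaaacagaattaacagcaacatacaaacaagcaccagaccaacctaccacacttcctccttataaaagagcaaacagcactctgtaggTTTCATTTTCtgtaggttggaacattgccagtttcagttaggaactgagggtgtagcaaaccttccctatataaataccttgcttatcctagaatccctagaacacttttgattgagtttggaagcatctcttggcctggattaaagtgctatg
Isg15: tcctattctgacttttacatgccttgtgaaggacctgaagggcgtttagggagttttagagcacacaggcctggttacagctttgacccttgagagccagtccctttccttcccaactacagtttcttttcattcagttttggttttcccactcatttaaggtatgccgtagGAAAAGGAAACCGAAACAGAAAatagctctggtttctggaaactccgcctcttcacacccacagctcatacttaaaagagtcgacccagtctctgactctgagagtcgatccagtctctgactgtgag
In the windows shown, the first match began 104 bases before the start in both Ifit1 and Ifit1bl1, and 78 bases before it in Isg15. Ifit1bl1 has another window, chr19:34599378-34599677 on the minus strand, whose match began 23 bases before its start. A promoter sequence was found for 27 of the 38 members, and 12 of these (44.4%) held the element, against 1079 of 27025 genes (3.99%) with a promoter of the same length. The other members with a match were Ifih1, Oas3, Oas1a, Trim30a, Ifitm3, Bst2, Stat2, Ifit3 and Ifit3b. A match describes the letters in the window and does not show binding.

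The microRNA arm is named for MIR29B, and the sequence of the administered agent is not given in the sources used here. The mouse miR-29b-3p of RefSeq, encoded at chromosome 1, 195037091 to 195037113 (plus strand), and at chromosome 6, 31063025 to 31063047 (minus strand), is shown with its seed, bases 2 to 8, in capitals. Below it is the single match to that seed in a 3′ UTR of the 38 members, in Oas1e on chromosome 5, with the matching letters in capitals.
miR-29b-3p: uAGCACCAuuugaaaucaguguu
Oas1e 3′ UTR: ggacaggaTGGTGCTcatgtctc
This match of 7 letters, TGGTGCT, began at base 102 of the annotated 3′ UTR of Oas1e. It was present in 1 of 38 members and in 1565 of 11385 tested genes with a 3′ UTR (13.7%). The longer match with a following A was in 0 members.

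Isg15 and Isg20 made up most of the family's RNA. Isg15 encodes the ubiquitin-like modifier, and Isg20 an exonuclease that degrades single-stranded RNA. Per kilobase of transcript, Isg15 averaged 6420 CPM and Isg20 averaged 4760 CPM over the 36 libraries. Together they took 85.6% to 94.1% of the summed CPM of the members. Ifi27, a mitochondrial and nuclear envelope protein, came next with a mean level of 341 CPM per kilobase, followed by the membrane restriction factors Ifitm3 with 136 and Bst2 with 53.4, the transcription factor Irf7 with 46.6 and the dNTP hydrolase Samhd1 with 34.2. The ranges of neighbours in the order of mean level overlapped across libraries throughout. Among the other 36 members Ifi27 alone, with 12.7 to 2400 CPM per kilobase, reached the lowest library of Isg20, at 1460.

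**Figure D1:**
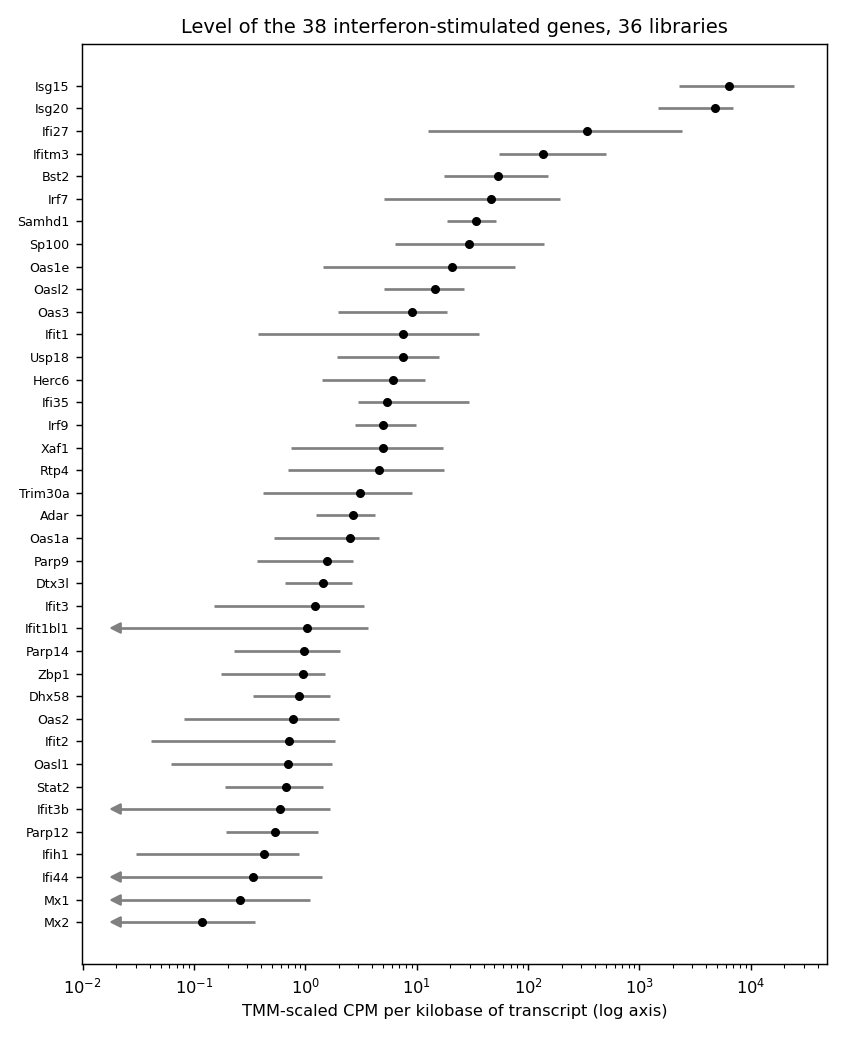
Level of each of the 38 members in TMM-scaled CPM per kilobase of transcript on a log axis; points are means over 36 libraries, lines run from the lowest to the highest library, and arrowheads mark members with a library at 0. Isg15 and Isg20 stand at the top with means of 6420 and 4760, and Mx2 at the bottom with 0.119.

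At the other end stood the dynamin-like GTPase genes Mx2 and Mx1, with 0.119 and 0.261 CPM per kilobase, and Ifi44, with 0.338. The entries used for Mx2 and Mx1 are non-coding RefSeq records, so their levels do not stand for transcripts of a working protein. In all, 15 members averaged under 5 CPM, and in 20 members the highest library was over 10-fold above the lowest. Mx2 held 210 counts in all 36 libraries together and was at 0 in 7 of them, where 3 counts, the upper limit that a count of 0 allows, would be 0.106 to 0.345 CPM. Every deposited count was even, so a fragment may have been counted as 2; the limit of 3 fragments is then 6 counts, or 0.211 to 0.689 CPM. Differences of the size of a few counts were not detectable for these genes, and such limits cover counting error alone.

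More members were called between week 2 and week 0 than in any other comparison by edgeR. With both arms and doses averaged, 10 of the 38 members (26.3%) were lower at week 2 and 0 were higher, by edgeR's quasi-likelihood test at an adjusted p under 0.05 over 11953 genes. Of all genes tested, 7.24% were lower and 8.72% higher at that threshold. The 10 members were the RNA-binding effectors Ifit1, Ifit2 and Ifit1bl1, the Isg15 protease Usp18, the Isg15 ligase Herc6, the ubiquitin ligase Dtx3l, the RNA sensor Ifih1, the apoptosis-linked Xaf1, the ADP-ribosyltransferase Parp14 and the nuclear body protein Sp100. The median log2 fold change was -0.58 over the members and -0.03 over all genes, and 36 of 38 members had a negative value. An unadjusted p under 0.05 was reached by 19 members, and by 31% of all genes.

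**Figure D2:**
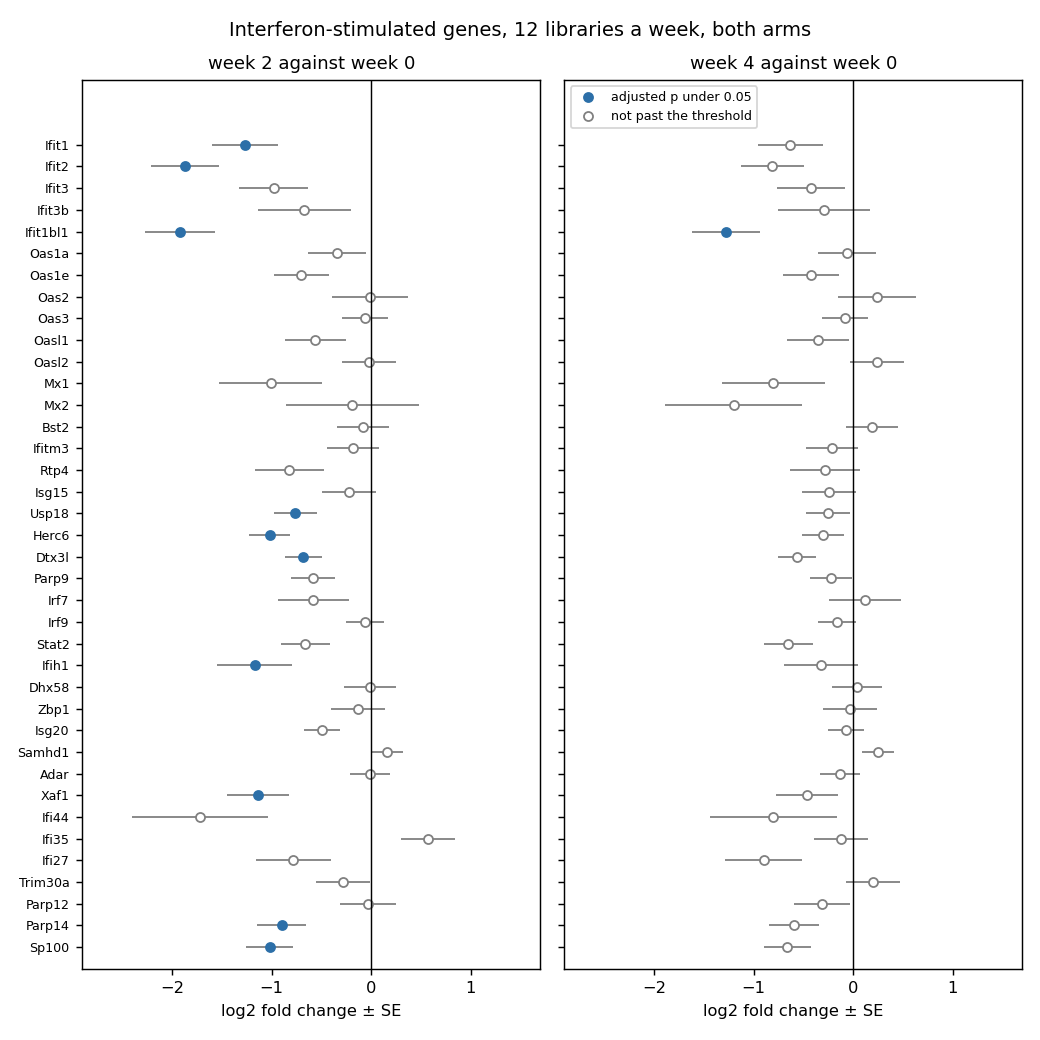
Log2 fold change of each member with its standard error, week 2 against week 0 on the left and week 4 against week 0 on the right, over both arms and doses with 12 libraries a week. Filled points have an edgeR adjusted p under 0.05: 10 members at week 2 and Ifit1bl1 alone at week 4.

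The IFIT genes lie side by side on chromosome 19 and encode proteins that bind RNA and, in the case of Ifit1, the 5′ end of transcripts without a self mark. Ifit2, at 34550550 to 34576534, had 0.156, 1.03 and 3.7 CPM (lowest, median and highest of 12 libraries) at week 2 and 1.83, 4.16 and 7.07 CPM at week 0. Every week 2 library lay below the week 0 median of Ifit2, and 10 of 12 lay below the lowest week 0 library. The log2 fold change was -1.87 ± 0.34 (SE, edgeR adjusted p = 0.000294). Ifit1bl1, a paralog in the same cluster at 34592888 to 34662981, had 0, 0.965 and 2.73 CPM at week 2 and 0.932, 3.92 and 8.09 CPM at week 0, with a log2 fold change of -1.92 ± 0.35 (adjusted p = 0.000337). All 12 week 2 libraries were below its week 0 median and 5 were below its lowest week 0 library, and in the library at 0 the limit of 3 counts was 0.178 CPM, or 0.357 CPM for 6 counts.

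Ifit1, at 34640889 to 34650009, had 0.996, 12.5 and 34.9 CPM at week 2 and 8.63, 23.6 and 96.6 CPM at week 0, a log2 fold change of -1.27 ± 0.33 (edgeR adjusted p = 0.00808). The groups overlapped more than for Ifit2, with 11 of 12 week 2 libraries below the week 0 median and 3 below the lowest. Ifit3 had a mean of 1.56 ± 1.39 CPM at week 2 and 2.81 ± 1.4 CPM at week 0 (SD, n = 12 each), and its log2 fold change of -0.98 ± 0.35 did not pass (adjusted p = 0.053). Ifit3b, a near copy of Ifit3, had -0.67 ± 0.47 (adjusted p = 0.344). The IFIT genes are similar in sequence, the annotated span of Ifit1bl1 covers Ifit1 and Ifit3b, and the handling of shared reads is not given in the sources used here, so how their counts were split is uncertain.

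**Figure D3:**
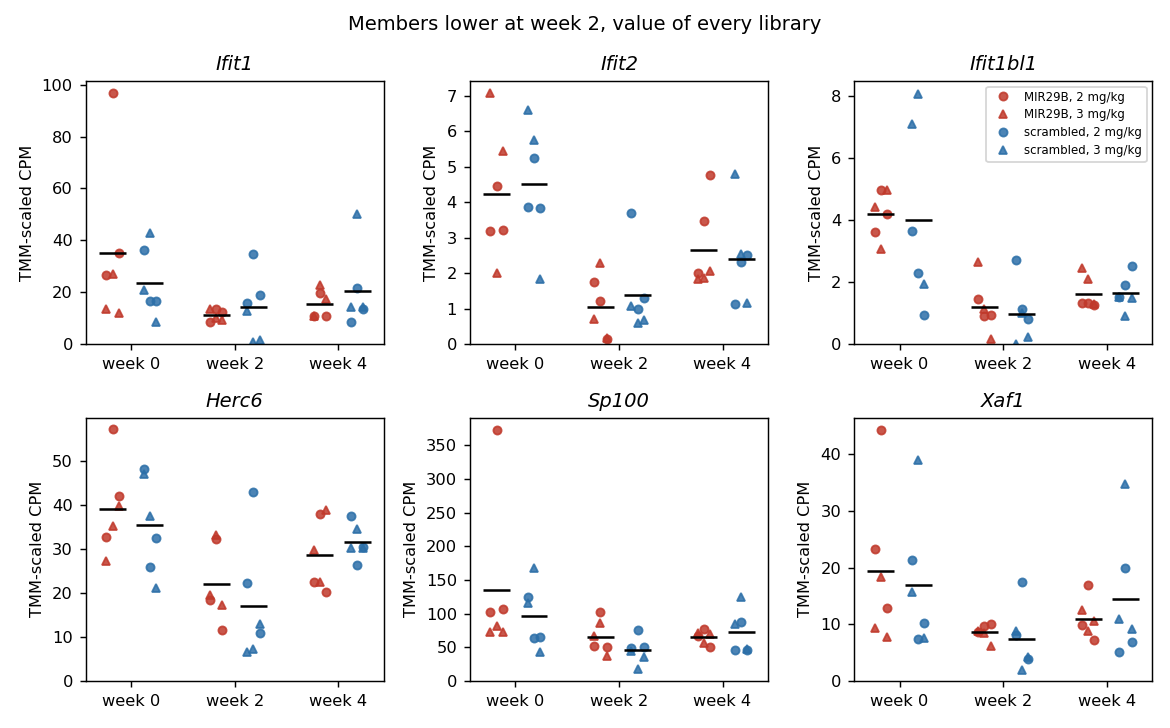
TMM-scaled CPM of Ifit1, Ifit2, Ifit1bl1, Herc6, Sp100 and Xaf1 in every library, by week, with MIR29B (red) left of scrambled (blue), circles for 2 mg/kg and triangles for 3 mg/kg; bars are means of 6 libraries. In each panel the means of both arms are lower at week 2 than at week 0, and 1 week 0 MIR29B library at 2 mg/kg stands at 96.6 CPM for Ifit1 and 373 CPM for Sp100.

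Of the 5 members that act in conjugation of Isg15 or ubiquitin, 3 fell at week 2 (Herc6, Usp18 and Dtx3l), and Isg15 itself did not pass the test. Herc6, the main ligase for Isg15 in mouse (chromosome 6, 57580992 to 57665136), had 6.65, 17.9 and 43.1 CPM at week 2 and 21.1, 36.4 and 57.4 CPM at week 0, and 8 of 12 week 2 libraries were below the lowest at week 0. Its log2 fold change was -1.02 ± 0.21 (edgeR adjusted p = 0.0013). Usp18, which removes Isg15 from proteins and also restrains the interferon receptor, had 3.44, 7.69 and 18.2 CPM at week 2 and 10.4, 14.5 and 28.3 CPM at week 0, a log2 fold change of -0.76 ± 0.22 (adjusted p = 0.0186). Of the 12 week 2 libraries, 11 were below the week 0 median of Herc6 and 10 below that of Usp18.

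Dtx3l acts as a complex with Parp9 in DNA damage and antiviral ubiquitination. It averaged 6.18 ± 1.69 CPM at week 2 and 9.9 ± 2.23 CPM at week 0 (SD, n = 12 each), with -0.68 ± 0.19 (edgeR adjusted p = 0.0162). Its partner Parp9 had -0.58 ± 0.22 (adjusted p = 0.0628). The 2 genes overlap by 558 bases, and no strand setting is given, so reads in that stretch cannot be assigned. Isg15 had 1730, 4780 and 7410 CPM at week 2 and 2140, 4300 and 18400 CPM at week 0, with -0.22 ± 0.27 (adjusted p = 0.618), and the weeks overlapped widely.

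The remaining 4 members that fell came from different roles. Ifih1, the cytosolic sensor of long double-stranded RNA known as MDA5, had 0.164, 1.15 and 4.27 CPM at week 2 and 1.53, 2.98 and 4.84 CPM at week 0 (-1.17 ± 0.38, edgeR adjusted p = 0.0314). Its call was the least steady, with adjusted p of 0.0624, 0.0662 and 0.0519 without week 0 scrambled 3 mg/kg replicate 1, week 0 MIR29B 3 mg/kg replicate 3 or week 2 MIR29B 2 mg/kg replicate 1. Sp100, a component of nuclear bodies, had 17.3, 50.6 and 102 CPM at week 2 and 42.6, 92.4 and 373 CPM at week 0 (-1.02 ± 0.24, adjusted p = 0.00465). Xaf1, which antagonises the caspase inhibitor XIAP, averaged 8 ± 3.93 CPM at week 2 and 18.1 ± 12.3 CPM at week 0 (SD, n = 12 each), with -1.14 ± 0.31 (adjusted p = 0.0114). Parp14 averaged 5.27 ± 2.67 CPM at week 2 and 9.79 ± 3.16 CPM at week 0, with -0.9 ± 0.25 (adjusted p = 0.0127), and for both genes 11 of 12 week 2 libraries were below the week 0 median.

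Several roles had 0 members called at week 2; with 7.24% of all genes lower, 0 calls among 3 to 6 genes is near that background. In the family of 2′-5′ oligoadenylate synthetases and synthetase-like genes, 0 of 6 members were called, with log2 fold changes of -0.7 ± 0.28 in Oas1e, -0.34 ± 0.29 in Oas1a and -0.02 ± 0.27 in Oasl2. Of the 5 Mx and membrane factors 0 were called, Mx1 having -1.01 ± 0.52 on few counts and Bst2 -0.08 ± 0.26. Of the 3 transcription factors 0 were called. Stat2 had -0.66 ± 0.25 (edgeR adjusted p = 0.0724), Irf7, the main inducer of interferon alpha genes, -0.58 ± 0.36, and Irf9 -0.06 ± 0.19. The nucleic acid binding protein Zbp1 had -0.13 ± 0.27, and the RNA editing enzyme Adar -0.01 ± 0.2. Isg20 had 1580, 4260 and 6390 CPM at week 2 and 3980, 6520 and 7500 CPM at week 0. All 12 week 2 libraries were below the week 0 median of Isg20, and its log2 fold change of -0.49 ± 0.18 had an adjusted p of 0.0628.

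Among the 8 called members with a promoter sequence, 3 held the interferon-response letters, as did 9 of the 19 members with a promoter that were not called. Ifit1 and Ifit1bl1, whose promoters are printed above, were among the called, and Isg15 was not.

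Blood cell markers differed between the same weeks. Of 18 neutrophil markers 15 were higher at week 2 and 0 lower, with summed levels of 810 to 3160 CPM at week 2 and 187 to 1310 CPM at week 0. Of 17 NK cell markers tested 8 were lower and 0 higher, and their list summed to 18.9 to 131 CPM at week 2 and 45.5 to 168 CPM at week 0. No marker of the 9 cell types listed was at 0 in every library of a week. Their part in the change of the members was not tested. Without the 3 libraries with over 5% of counts on Rn28s1 and unnamed non-coding entries, 4 of 38 members (10.5%) were lower, Ifit2, Ifit1bl1, Herc6 and Sp100, against 2.79% of all genes. Without week 0 MIR29B 2 mg/kg replicates 2 and 3, 7 were lower (18.4%), against 4.95% of all genes.

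**Figure D4:**
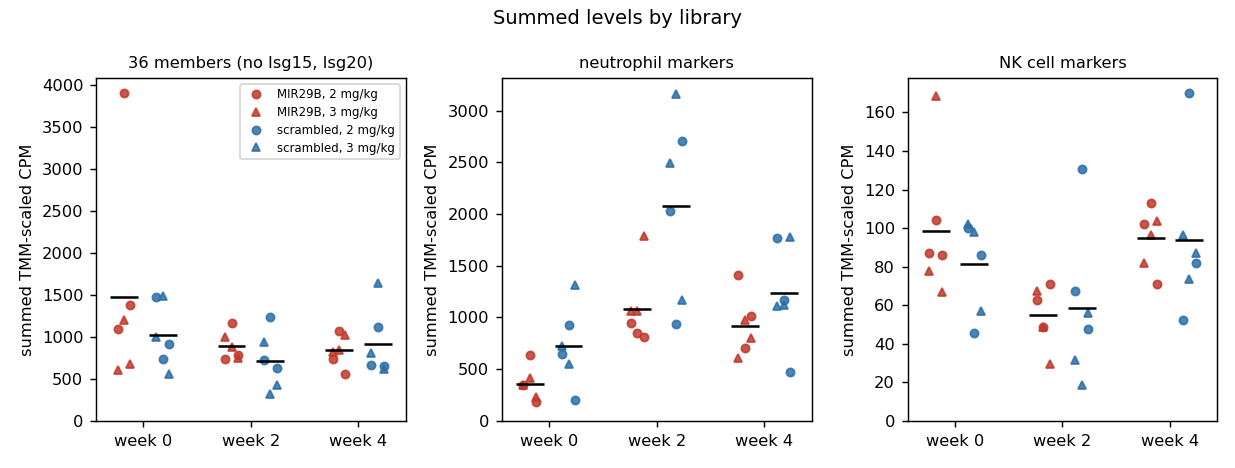
Summed TMM-scaled CPM by library and week of the 36 members other than Isg15 and Isg20, of the neutrophil markers and of the NK cell markers, with MIR29B (red) left of scrambled (blue), circles for 2 mg/kg, triangles for 3 mg/kg and bars for means of 6 libraries. Neutrophil sums at week 2 run from 810 to 3160 CPM and NK cell sums from 18.9 to 131 CPM.

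Genes upstream of the members and related programmes were compared from lists chosen by function. In the list of interferon ligands, receptors and proximal signalling, 18 of 29 genes could be tested, and at week 2 against week 0 both arms 3 were higher and 0 lower: the signalling inhibitor Socs3 (1.1 ± 0.28), the transcription factor Irf1 (0.65 ± 0.18) and the receptor chain Ifnar2 (0.62 ± 0.22). Of 24 tested nucleic acid sensors and adaptors 1 was higher and 7 were lower, among them Ifi203 (-1.55 ± 0.23) and Sike1 (-1.18 ± 0.22). Of 25 tested genes weighted towards interferon gamma 1 was higher, Irf1, which is in both lists, and 9 were lower, led by the GTPases Ifi47 (-1.23 ± 0.18), Gbp4 (-1.49 ± 0.23) and Gbp7 (-1.83 ± 0.29). At week 4 against week 0 these lists had 1 higher and 0 lower, 0 higher and 4 lower, and 0 higher and 4 lower. Over all genes 8.72% were higher and 7.24% lower at week 2, and 4.23% higher and 1.92% lower at week 4. In the first list, 1 of 18 genes higher at week 4 is near the share over all genes.

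At week 4 against week 0 only Ifit1bl1 was called, 1 of 38 members (2.63%), against 1.92% of all genes lower and 4.23% higher. It had 0.902, 1.51 and 2.51 CPM at week 4 and 0.932, 3.92 and 8.09 CPM at week 0, with a log2 fold change of -1.28 ± 0.34 (edgeR adjusted p = 0.019). That call was lost without the 3 libraries named above (adjusted p = 0.0543) and without week 0 MIR29B 2 mg/kg replicates 2 and 3 (adjusted p = 0.071). Ifit2 had a mean of 2.54 ± 1.22 CPM at week 4 and 4.38 ± 1.69 CPM at week 0 (SD, n = 12 each), with -0.81 ± 0.32 (adjusted p = 0.141), and Herc6 -0.3 ± 0.21 (adjusted p = 0.473). The median over the members was -0.29, against -0.04 over all genes.

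Between week 4 and week 2, 0 members were called by edgeR, against 1.05% of all genes, although 29 of 38 values were positive, with a median of 0.27 over the members and -0.01 over all genes. An unadjusted p under 0.05 was reached by 7 members and by 18.3% of all genes, close to the same share. DESeq2 called 2 of 38 members and 630 of 11953 genes. The smallest p-values belonged to Herc6 (0.72 ± 0.21, edgeR adjusted p = 0.0748), Ifit2 (1.06 ± 0.34, adjusted p = 0.0946) and Ifi35 (-0.69 ± 0.27, adjusted p = 0.161). Herc6 passed without any one of week 2 MIR29B 2 mg/kg replicate 2, MIR29B 3 mg/kg replicate 2, scrambled 2 mg/kg replicate 2 or scrambled 3 mg/kg replicate 3, at adjusted p of 0.0428, 0.0418, 0.0201 and 0.0363, and Ifit2 without week 2 MIR29B 3 mg/kg replicate 2 or scrambled 2 mg/kg replicate 1, at 0.0258 and 0.0302. Counted per library, 3 to 25 members stood above their own median over the study at week 2 (median 14), against 13 to 34 at week 0 (median 24.5), and 5 to 32 did so at week 4 (median 18).

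Each arm taken alone, with 6 libraries a week, had fewer calls at week 2. In the MIR29B arm 2 members were lower at week 2, against 1.99% of all genes, namely Ifit2 (-1.92 ± 0.48, edgeR adjusted p = 0.0148) and Ifit1bl1 (-1.78 ± 0.49, adjusted p = 0.0272). In the scrambled arm 3 were lower, against 1.1% of all genes, namely Ifit2 (-1.83 ± 0.48, adjusted p = 0.034), Ifit1bl1 (-2.06 ± 0.5, adjusted p = 0.0227) and Herc6 (-1.24 ± 0.3, adjusted p = 0.0228). Ifit2 had 0.156, 0.966 and 2.29 CPM at week 2 and 2.01, 3.83 and 7.07 CPM at week 0 in the MIR29B arm, and 0.597, 1.03 and 3.7 CPM at week 2 and 1.83, 4.56 and 6.59 CPM at week 0 in the scrambled arm (lowest, median and highest of 6). The arms overlapped at both weeks.

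Of these calls within an arm, that of Ifit2 with MIR29B was kept with any single library left out, and each of the others was lost without some single library. With MIR29B Ifit2 alone was called without week 0 2 mg/kg replicate 2 or 3, or week 0 3 mg/kg replicate 1 or 3. The same held without week 2 2 mg/kg replicate 2 or 3, or week 2 3 mg/kg replicate 3. Ifit1bl1 then had log2 fold changes of -1.79 to -1.54 and adjusted p of 0.0502 to 0.0714 by edgeR. Without week 2 3 mg/kg replicate 2, 4 members were called in the MIR29B arm, all lower, among 681 genes called over all genes. Each of the fits with Ifit2 alone called fewer genes. In the scrambled arm 0 were called without week 0 2 mg/kg replicate 1, week 0 3 mg/kg replicate 1 or 2, or week 2 2 mg/kg replicate 3. Over all genes 170, 68, 42 and 44 were called in these fits. Without week 0 2 mg/kg replicate 3, 1 member and 82 genes were called. In the same arm 7, 8 and 5 members were called without week 2 2 mg/kg replicate 1, week 2 2 mg/kg replicate 2 or week 2 3 mg/kg replicate 3. Of these members 6, 8 and 4 were lower. Over all genes 950, 588 and 677 were called in these fits. The difference between the arms in the change was tested as an interaction. For week 2, edgeR called 0 members and 0% of genes, with the smallest p in Ifi35, Oasl2 and Oas3 (-0.94 ± 0.53, 0.86 ± 0.55 and 0.65 ± 0.45). For week 4 it called 0 members and 0%, with the smallest p in Dhx58, Stat2 and Isg15 (0.95 ± 0.51, 0.81 ± 0.51 and -0.84 ± 0.54). In both interactions 0 members reached an unadjusted p under 0.05, and 0 were called by DESeq2. Of all genes, 5.61% reached that unadjusted p for week 2 and 6.03% for week 4, so 0 of 38 members is near that background.

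At week 4 against week 0, 0 members were called in the MIR29B arm (3.09% of all genes in either direction) and 0 in the scrambled arm (0.46%). Unadjusted p under 0.05 was reached by 6 members with MIR29B, against 17.1% of all genes, and by 3 with scrambled, against 9.77%. DESeq2 called 1 and 0 members, the 1 being among 782 genes called. The leading values were -1.39 ± 0.48 in Ifit1bl1, -0.9 ± 0.34 in Sp100 and -1.38 ± 0.55 in Ifi27 with MIR29B, and -1.06 ± 0.36 in Stat2, -1.16 ± 0.48 in Ifit1bl1 and -0.73 ± 0.35 in Parp14 with scrambled. At week 4 against week 2, 0 members and 0% of genes were called in either arm. An unadjusted p under 0.05 was reached by 3 members with MIR29B and 7 with scrambled, against 11% and 10.8% of all genes. DESeq2 called 0 and 1 members, the 1 being among 38 genes called over all genes. There the MIR29B arm was led by Ifit2, Ifih1 and Trim30a (1.22 ± 0.47, 1.18 ± 0.54 and 0.81 ± 0.38) and the scrambled arm by Herc6, Isg20 and Ifi35 (1.08 ± 0.3, 0.79 ± 0.26 and -1.09 ± 0.38). Without week 2 scrambled 2 mg/kg replicate 2, Herc6 (1.4, edgeR adjusted p = 0.0182) and Isg20 (1.07, adjusted p = 0.0335) passed in the scrambled arm.

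MIR29B against scrambled addressed whether the microRNA changed the interferon-stimulated genes. Averaged over doses, 0 members and 0% of genes were called at week 0, at week 2 or at week 4. Unadjusted p under 0.05 was reached by 1, 4 and 0 members at weeks 0, 2 and 4, and by 7.13%, 9.83% and 2.64% of all genes. The median over the members was 0.08, 0.09 and 0.01 at weeks 0, 2 and 4, against -0.05, -0.09 and 0.03 over all genes. Isg15 had log2 fold changes of 0.54 ± 0.38, 0.55 ± 0.38 and -0.3 ± 0.38 at weeks 0, 2 and 4, and Irf7 -0.34 ± 0.51, 0.46 ± 0.52 and -0.46 ± 0.51. DESeq2 called 0, 1 and 0 members at weeks 0, 2 and 4, the 1 being Oas1e, among 76 genes called at week 2. Summed neutrophil markers at week 2 were at 1090 ± 358 CPM with MIR29B and 2080 ± 882 CPM with scrambled (SD, n = 6 each), with 0 of the 18 markers called. Summed red cell markers were at 124000 ± 8550 CPM with MIR29B and 89500 ± 19800 CPM with scrambled, with 0 of 13 markers called. That sum is mostly Alas2, which had a median of 107000 CPM over all libraries where the sum had 119000. The part of the neutrophil or red cell markers in the members' values was not tested.

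Oas1e, a mouse paralog of the oligoadenylate synthetase Oas1 on chromosome 5 (120786312 to 120795530) and the member with the miR-29 seed match printed above, had the smallest p of the members between the arms at weeks 0 and 2. A link of the seed match to these values was not tested, and the sequence of the administered agent is not known here. The mean of Oas1e was higher with MIR29B at both weeks. With the filter on low counts and all libraries, edgeR called Oas1e at neither week. At week 2 and 3 mg/kg it had 48.5, 51.3 and 46.1 CPM with MIR29B and 3.8, 2.59 and 17.2 CPM with scrambled. At 2 mg/kg it had 28.5, 59.6 and 35.2 CPM with MIR29B and 20.8, 38.9 and 26.5 CPM with scrambled. The arms did not overlap at 3 mg/kg and overlapped at 2 mg/kg. The summed red cell markers, mostly Alas2, did not overlap in the same week 2 libraries at 3 mg/kg either. They were at 122000 to 141000 CPM with MIR29B and 75000 to 95400 CPM with scrambled, and their part in the values of Oas1e was not tested. The log2 fold changes were 2.66 ± 0.6 at 3 mg/kg (edgeR adjusted p = 0.454), 0.52 ± 0.56 at 2 mg/kg and 1.59 ± 0.41 over both doses (adjusted p = 0.156). The difference between the doses was 2.14 ± 0.81 (adjusted p = 0.793).

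The call of Oas1e at week 2 depended on the method. DESeq2 called it over both doses (adjusted p = 0.0209) and at 3 mg/kg (adjusted p = 0.029), as did edgeR without the filter on low counts (0.000519 and 5.57e-05) and without week 2 scrambled 3 mg/kg replicate 3 (log2 fold changes of 2.23 and 3.93, adjusted p of 0.0427 and 0.0136). Over all alternatives the adjusted p ran from 0.000519 to 0.839 over both doses and from 5.57e-05 to 1 at 3 mg/kg. At week 0 Oas1e had 15.9, 52.3 and 138 CPM with MIR29B and 12.3, 25.5 and 69.6 CPM with scrambled (0.89 ± 0.4, edgeR adjusted p = 0.696), and at week 4 its log2 fold change was 0.23 ± 0.4. The arms overlapped at both of these weeks. The Oas1 paralogs are similar in sequence, so how shared reads were counted for Oas1e is uncertain.

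**Figure D5:**
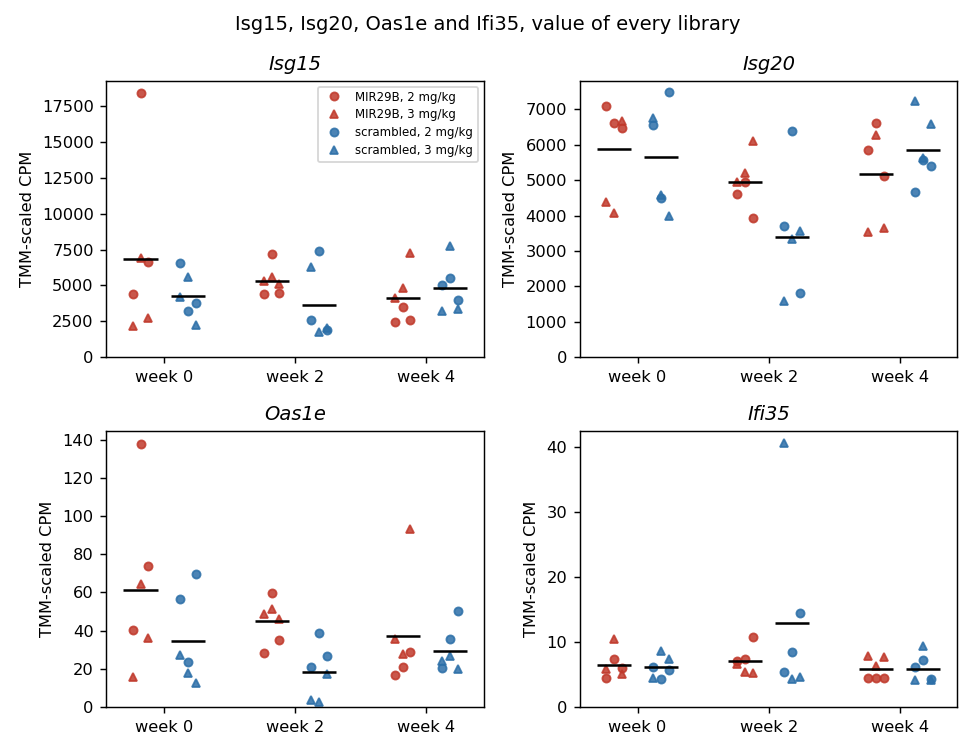
TMM-scaled CPM of Isg15, Isg20, Oas1e and Ifi35 in every library by week, MIR29B (red) left of scrambled (blue), circles for 2 mg/kg, triangles for 3 mg/kg and bars for means of 6 libraries. At week 2 the 3 MIR29B libraries at 3 mg/kg have 46.1 to 51.3 CPM of Oas1e and the 3 scrambled libraries 2.59 to 17.2, and 1 scrambled library holds 40.6 CPM of Ifi35.

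Other leading members at week 2 were Oas3 (0.78 ± 0.32, edgeR adjusted p = 0.418), Ifi35, which binds Nmi (-0.85 ± 0.38, adjusted p = 0.446), and Isg20 (0.56 ± 0.26, adjusted p = 0.477). Isg20 had 3920, 4950 and 6110 CPM with MIR29B and 1580, 3450 and 6390 CPM with scrambled. Ifi35 rested on week 2 scrambled 3 mg/kg replicate 1, which had 40.6 CPM where the MIR29B libraries had 5.14 to 10.7 CPM, and without that library its value was 0.15. At week 0 the arms were led, after Oas1e, by Samhd1 (-0.38 ± 0.23) and Ifi27 (0.91 ± 0.55), and at week 4 by Stat2 (0.71 ± 0.36), the RNA helicase Dhx58 (0.67 ± 0.36) and Ifi44 (-1.33 ± 0.93).

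Within single doses 0 members and 0% of genes were called in any of the 6 comparisons of the arms by edgeR. DESeq2 called 1 member, Oas1e, at week 2 and 3 mg/kg, among 5 genes called. At week 2 and 3 mg/kg 5 members had an unadjusted p under 0.05, against 7.09% of all genes, after Oas1e led by Herc6 (1.41 ± 0.43) and Ifi35 (-1.54 ± 0.54, and 0.44 without week 2 scrambled 3 mg/kg replicate 1), while at 2 mg/kg 2 did, against 8.22% of all genes, Rtp4 (-1.63 ± 0.71) and Trim30a (-1.15 ± 0.54), followed by Oas3 (0.73 ± 0.45). At week 0 the 2 mg/kg groups were led by Ifitm3, Sp100 and Bst2 (1.44 ± 0.53, 1.21 ± 0.49 and 1.06 ± 0.52), which all had an unadjusted p under 0.05, against 4.63% of all genes, and the 3 mg/kg groups by Irf7, Oas1e and Ifitm3 (-1.49 ± 0.74, 1.02 ± 0.57 and -0.94 ± 0.52), of which none did, against 3.41% of all genes. Without MIR29B replicates 2 and 3 the value of Bst2 at week 0 and 2 mg/kg was -0.23. At week 4 the 2 mg/kg groups were led by Stat2, Parp14 and Mx2 (1.17 ± 0.51, 0.75 ± 0.49 and 2.08 ± 1.44), and the 3 mg/kg groups by Oasl1, Oas1e and Irf7 (-1.59 ± 0.64, 1.16 ± 0.57 and -1.16 ± 0.74), with 1 member at an unadjusted p under 0.05 in each, against 2.25% of all genes at 2 mg/kg and 3.2% at 3 mg/kg. Without MIR29B replicate 1 the value of Mx2 at 2 mg/kg was -0.57, and without scrambled replicate 2 that of Irf7 at 3 mg/kg was 0.14.

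Dose was compared within the MIR29B arm. At 3 against 2 mg/kg, 0 members and 0% of genes were called at week 2 and at week 4, 0 and 3 members having an unadjusted p under 0.05, against 1.73% and 2.3% of all genes. DESeq2 called 0 members at both weeks. The smallest p-values were those of Ifit3, Ifit3b and Ifih1 at week 2 (-1 ± 0.7, -1.28 ± 0.96 and -1.02 ± 0.78) and of Oasl1, Oas1e and Parp14 at week 4 (-1.45 ± 0.63, 1.24 ± 0.57 and -1.03 ± 0.49). The difference between doses in the effect of MIR29B over scrambled also gave 0 members and 0% of genes at either week, with 4 and 2 members at an unadjusted p under 0.05, against 5.76% and 3.43% of all genes, and 0 by DESeq2. It was led by Herc6, Oas1e and Ifit1 at week 2 (1.69 ± 0.6, 2.14 ± 0.81 and 2.13 ± 0.94) and by Oasl1, Oas1e and Oas2 at week 4 (-2.47 ± 0.89, 1.84 ± 0.8 and -1.83 ± 1.09).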

How the data were processed

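RNA was sequenced from 36 peripheral blood libraries. The authors deposited raw counts, not normalised, for 25856 RefSeq transcripts. Per the submitters' processing notes, the build was GRCm38 and the tools included featureCounts 1.5.0-p3 and HISAT2 2.0.5; strand setting, mate handling and multi-mapped reads are not given in the sources used here. Every deposited count was even. Transcripts were matched to symbols by RefSeq (25645) or GENCODE (137), 74 had none, and each gene took its transcript with the highest total, which gave 16812 genes and 6.82 to 31.72 M counts per library. With edgeR 4.0.16 in R 4.3.3, genes were kept by filterByExpr (minimum count 10, minimum total 15; 11953 genes), scaled with TMM and fitted with a quasi-likelihood model of 12 groups, the common dispersion being 0.25. Tests were two-sided, Benjamini-Hochberg adjusted over all genes within a comparison; the standard error is the absolute log2 fold change over the square root of F. DESeq2 1.42.0 was an alternative, as were other scaling, no filter, halved counts, left-out libraries, a replicate block and fits of the compared groups alone. The code was tested on simulated data. Gene coordinates are from RefSeq on GRCm38. All 38 members are accounted for; named are the called ones, the 3 smallest p-values where none was called, and a fixed set by role. The members, lists and alternatives were chosen with earlier results of these data known.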

Additional observations from a re-analysis of the deposited data

Results flagged for a closer look

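A total of 15 measures were screened in 6 sets of 6 libraries each, by week and arm, which made 90 sets, and in 11 of them 1 library stood apart from the others by its gap relative to the range. Chance alone flags about 1 in 20 sets of independent, normally distributed values. The CPM were not transformed, all 11 flagged values were high ones, and the summed measures contain the single genes. The rate expected by chance here is therefore not known.

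Week 0 MIR29B 2 mg/kg replicate 2 accounted for 5 of the 11. Its summed level of the 38 members was 28940 CPM, where the other week 0 MIR29B libraries had 7140 to 14470, and without Isg15 and Isg20 it was 3895 CPM, where the others had 610.6 to 1376. It held 96.6 CPM of Ifit1 where the others had 12 to 35.2, 373 CPM of Sp100 where they had 72.9 to 107, and 18400 CPM of Isg15 where they had 2140 to 6920.

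Week 2 scrambled 2 mg/kg replicate 1 stood high in Ifit2 with 3.7 CPM, the other week 2 scrambled libraries having 0.597 to 1.31, and in Parp14 with 11.4 CPM, the others having 3.6 to 6.04. Ifih1 stood at 3.29 CPM in week 2 MIR29B 2 mg/kg replicate 2, 1 of the 3 libraries with over 5% of counts on Rn28s1 and unnamed non-coding entries, where the others had 0.354 to 1.34, and at 4.84 CPM in week 0 scrambled 3 mg/kg replicate 1, where the others had 2.21 to 3.1. Ifit1 stood at 50.2 CPM in week 4 scrambled 3 mg/kg replicate 2, where the others had 8.57 to 21.5. Oas1e stood at 93.2 CPM in week 4 MIR29B 3 mg/kg replicate 3, where the others had 16.9 to 35.8.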

How the results depend on the processing

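Of the 38 members 15 averaged under 5 CPM. The 10 members lower at week 2 against week 0 in both arms stood against 7.24% of all genes. They were 4 without the 3 libraries with over 5% of counts on Rn28s1 and unnamed non-coding entries, against 2.79% (edgeR adjusted p of 0.0565 to 0.0993 for the 6 lost). Without the filter and with DESeq2 they were 15, against 6% and 11.2% of all genes. With halved counts they were 14, against 9.95%, and with DESeq2 size factors in edgeR 13, against 8.33%. With single libraries left out they were 9 to 13. For week 4 against week 0 in both arms the count of 1 stood against 1.92% of all genes lower. It was 3 without the filter, 4 in a fit of the compared groups alone and 2 with DESeq2, against 1.48%, 4.02% and 4.01%. Without those 3 libraries it was 0, against 1.23%, and without week 0 MIR29B 2 mg/kg replicates 2 and 3 it was 0, against 0.782%. With single libraries left out it was 1 to 1. For week 4 against week 2 in both arms the 0, beside 125 genes called over all genes, was 4 without the filter (716 genes) and 2 with DESeq2 (630 genes). With single libraries left out it was 0 to 2. In the MIR29B arm the 2 at week 2 against week 0 were 7 without the filter (777 genes called), 0 without the 3 libraries (164 genes) and 0 without replicates 2 and 3 (37 genes). They were 6 with DESeq2 (1095 genes) and 1 to 4 with single libraries left out, the 4 being among 681 genes called. There the 0 at week 4 against week 0 was 3 without the filter (735 genes), 1 in a fit of the compared groups alone (626 genes) and 1 with DESeq2 (782 genes). In the scrambled arm the 3 at week 2 against week 0 were 10 without the filter, 9 of them lower (902 genes called), and 1 without the 3 libraries (144 genes). They were 0 in a fit of the compared groups alone (0 genes), 5 with DESeq2 (948 genes) and 0 to 8 with single libraries left out. There the 0 at week 4 against week 2 was 1 without the filter (97 genes), 1 with DESeq2 (38 genes) and 0 to 2 with single libraries left out. For MIR29B against scrambled at week 2, over both doses and at 3 mg/kg alone, the 0 was 1 without the filter (93 and 36 genes called). It was 1 with DESeq2 (76 and 5 genes) and 0 to 1 with single libraries left out. The causes of these moves were not tested.

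Values of MIR29B against scrambled that turned sign were those of Ifi35 without week 2 scrambled 3 mg/kg replicate 1 (range with single libraries left out -1.08 to 0.15 at week 2 and -2 to 0.44 at 3 mg/kg, and -1.17 to 0.03 for the difference between arms in week 2 against week 0), Bst2 at week 0 and 2 mg/kg without MIR29B replicates 2 and 3 (-0.23), Mx2 at week 4 and 2 mg/kg without MIR29B replicate 1 (-0.57 to 2.61) and Irf7 at week 4 and 3 mg/kg without scrambled replicate 2 (-1.6 to 0.14). The cause was not tested.

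Whether equal replicate numbers mark shared animals could not be decided from groups of 3 libraries. In 0 of 18 pairs of groups was every same-number correlation over 0.1 (range -0.41 to 0.36). Of 54 comparisons 23 were highest with their own number. That count was 3 for MIR29B 2 mg/kg at week 4 against week 0, and 0 for scrambled 3 mg/kg at week 2 against week 0. With the replicate number as a block 14 members were lower at week 2 and 1 at week 4 against week 0 in both arms, against 7.53% and 1.97% of all genes. With the block set within arm and dose 11 and 0 were lower, against 5.71% and 1.29%.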
